A study of Mus musculus with 6 samples.

Results

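Heat shock proteins and folding chaperones were examined in RAW264.7 cells, mouse macrophage-like cells grown as an established line, which can form osteoclasts under the cytokine RANKL. The set held 34 genes of the 55536 in the deposited tables and was chosen by function: the transcription factor HSF1, the HSP60, HSP70 and HSP90 systems with their co-chaperones, the small heat shock protein HSPB1, the CCT ring and prefoldin. Symbols were assigned from the Ensembl gene IDs with the mouse annotation GENCODE M21, in which all 34 were found. RANKL was present at 50 ng/mL in all 6 libraries, so it is shared by both groups; 3 libraries had RANKL alone, and the other 3 also had 4 µM etelcalcetide, a peptide agonist of the calcium-sensing receptor. The labels give 5, 6 and 7 days of exposure for replicates 1, 2 and 3 of both groups, whereas the series design gives 5 days for all, so replicate number and labelled duration cannot be told apart. No library without RANKL was analysed here, and the labels do not state whether replicates are separate cultures; p-values therefore reflect the spread among these libraries alone, which may be technical. The comparison is of transcript levels with and without etelcalcetide on a background of RANKL.

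Chaperones bind unfolded or partly folded proteins and let them fold, refold or be handed on. HSP70 works in cycles of ATP use that J-domain proteins start and nucleotide exchange factors reset, HSP90 finishes the folding of kinases and receptors with co-chaperones, HSP60 with its lid HSP10 forms a folding chamber in mitochondria, and the CCT ring with the prefoldin hexamer folds actin and tubulin in the cytosol. HSF1, when released from chaperones during heat or other protein stress, trimerises and binds heat shock elements, inverted repeats of the letters GAA, in the promoters of many of these genes.

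Of the 34 members, 32 were abundant enough to test. With etelcalcetide 21 were lower, 2 were higher and 9 did not pass (limma, Benjamini-Hochberg adjusted p under 0.05 over all tested genes). Over all 11120 tested genes 53.0% changed, 27.0% lower and 26.0% higher. Every count of lower or higher genes below stands beside these shares. The median log2 fold change of the tested members was -0.30 and that of all tested genes -0.01. Most members are abundant, with 30 of the 32 at 10 FPKM or more in the RANKL group, and among the 4643 tested genes with a mean of at least 10 FPKM 61.4% changed, 33.4% lower and 27.9% higher. FPKM scales a gene's reads to library depth and to exon length, here the merged exons of all its transcripts. Merged exons can be much longer than a transcript, as for Cct7 with 6778 bases against 2441 in its longest coding transcript. Levels of different genes can therefore be compared only roughly. The deepest decreases were those of Hspa1b, Hsph1, Hspa9 and Hspd1, and the 2 genes that rose were Bag3 and Pfdn5. After scaling, 24 of the 32 members had groups that did not overlap, 21 with the treated libraries below and 3 with them above. Over all tested genes the groups did not overlap for 61.9%, 31.2% below and 30.7% above. As deposited, 20 members lay below and 8 above, against 24.5% and 36.7% of all tested genes.

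Totals of gene-assigned reads lay between 13742913 and 16264432 per library. Before the test FPKM values were divided by scaling factors of 0.967 to 0.978 for RANKL alone and 1.01 to 1.04 with etelcalcetide, while levels printed here are as deposited, so small differences can point another way in the test. Where only library totals were used for scaling, 3558 of the changed genes were higher and 2272 lower, against 2896 and 2998 with the factors, and 4 members were then higher and 19 lower. Of 10 macrophage markers 9 were tested; Adgre1, Aif1, Itgam and Cd14 were higher with etelcalcetide (log2 fold changes 1.496, 1.03, 0.77 and 0.70), Msr1 was lower (-1.03), and the abundant Lyz2, Cd68 and Csf1r were among the 4 that did not pass. Their FPKM as deposited summed to 2722 to 2888 without etelcalcetide and 3146 to 3324 with it. Lyz2 was the largest part of both macrophage sums, at 1748 ± 116 and 1830 ± 69.3 FPKM (SD, n = 3 each, log2 fold change -0.01). Among markers of other cell types, 5 of 8 lymphocyte, 2 of 8 fibroblast and osteoblast and 4 of 7 neutrophil and mast cell markers had 0 reads in every library. Summed FPKM of those 3 lists was at most 0.301, 0.584 and 0.196 in any library. Over 10 osteoclast markers FPKM summed to 393 to 539 without etelcalcetide and to 206 to 219 with it, with Acp5, the osteoclast acid phosphatase, at 115 ± 22.1 and 3.93 ± 0.709 FPKM and Nfatc1, the osteoclast master regulator, at 52.8 ± 6.46 and 22.1 ± 1.15 FPKM (SD, n = 3 each). The osteoclast markers did not all fall. Mmp9, Dcstamp and Itgb3 did not pass (log2 fold changes -0.03, -0.001 and 0.21), while Ocstamp was lower (-1.57). Mmp9 stood at 158 ± 21.7 and 163 ± 8.04 FPKM and was the largest part of both osteoclast sums. The markers Ctsk, Atp6v0d2 and Oscar were under 0.5 FPKM in every treated library and met the filter only through the RANKL group, so no count of lower markers is given. Calcr, the calcitonin receptor that defines mature osteoclasts, had 8 reads in the RANKL libraries and 0 in the treated ones. As deposited, the osteoclast sum was lower and the macrophage sum higher in the same libraries as the changes described here. The part of either in those changes was not tested. In bulk RNA, fewer cells of a type and less RNA per cell cannot be told apart.

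**Figure D1:**
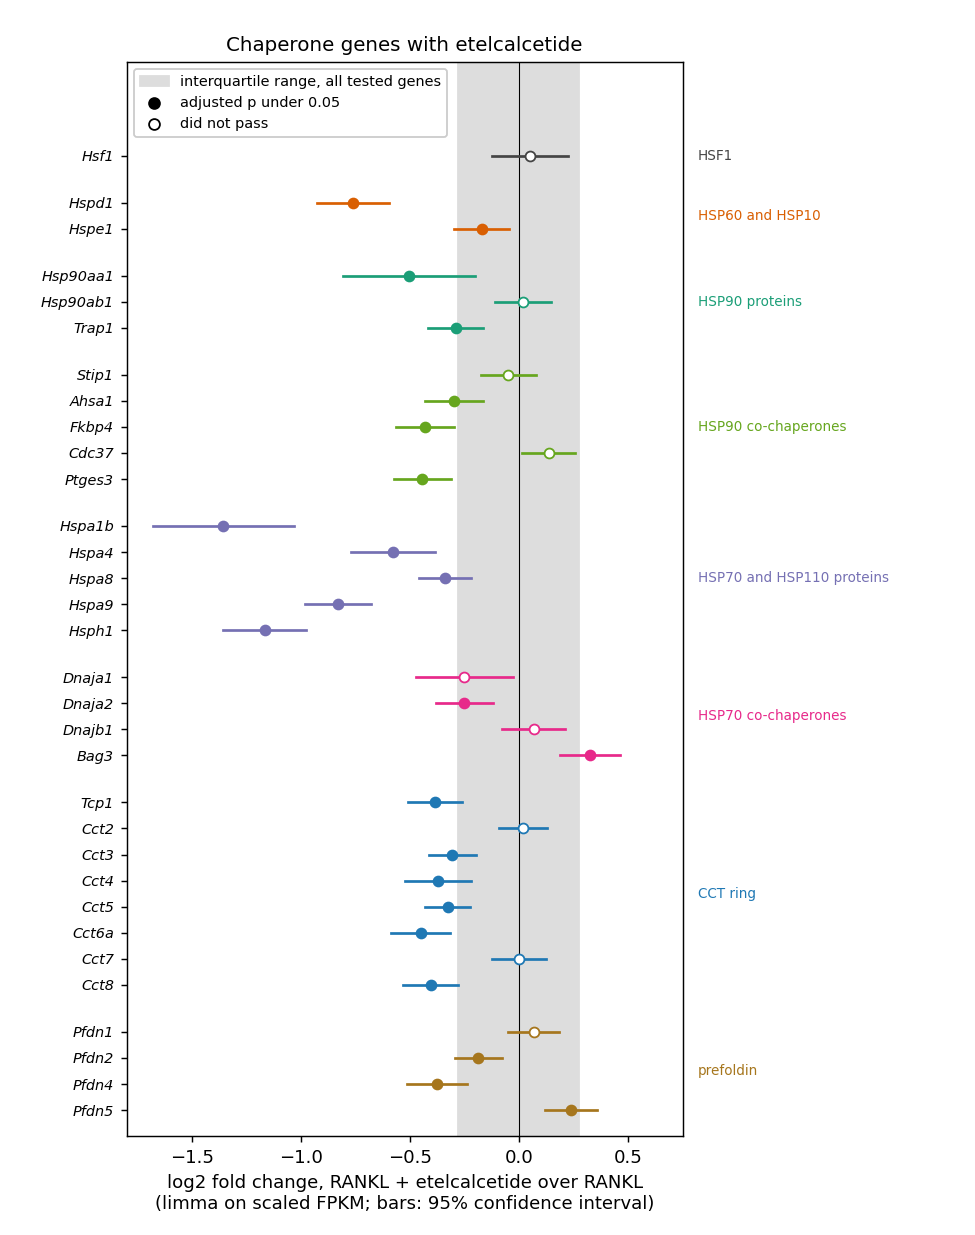
Log2 fold change of the 32 tested chaperone genes, RANKL plus etelcalcetide over RANKL, with 95% confidence intervals from limma; colours mark the systems, filled points passed the test, and the grey band is the interquartile range of all tested genes. Hspa1b and Hsph1 lie farthest to the left at -1.36 and -1.17, and Bag3 and Pfdn5 are the only filled points right of 0.

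Heat shock elements can be read in the promoters of some of these genes, and the stretches that hold them are shown for Hspa1b, Hsph1 and Hspd1, which are among the steepest decreases, for Hspe1, which shares its stretch with Hspd1 but had the smallest decrease that passed, for Fkbp4 as an HSP90 co-chaperone, and for Bag3, which had the largest increase. Windows of 250 bases before to 50 after each RefSeq start (build GRCm38.p6) were found for 27 members. Hspa8, Hspa9 and Hsp90aa1, all lower with etelcalcetide, were among the members without a window. A run of 3 alternating units, spelled GAANNTTCNNGAA or TTCNNGAANNTTC, which are each other's reverse complement, stood in the windows of 3 members, Hspd1, Hspe1 and Hsph1. That was 11.1% of the members with a window, against 0.662% of all genes with one and 0.603% of all 32851 windows. Hspd1 and Hspe1 share the same run. A pair of units, GAANNTTC or TTCNNGAA, each its own reverse complement and contained in the longer run, stood in the windows of 13 members. Those were 48.15% of the members with a window, against 16.97% of all genes with one and 15.1% of all windows. Hspa1a and Hspa1b, both among the 13, have nearly identical windows, so the member counts are not independent. The following stretches of 30 bases run 5′ to 3′ on the gene's strand, with the matching letters in capitals.
Hspe1 (chr1:55088053-55088082, plus strand, -89 to -72 from the start): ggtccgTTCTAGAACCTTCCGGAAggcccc
Hspd1 (the same 30 bases on the minus strand, -144 to -127 from the start): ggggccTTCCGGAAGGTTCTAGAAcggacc
Hsph1 (chr5:149636279-149636308, minus strand, 16 to 28 bases after the nearer of its annotated starts): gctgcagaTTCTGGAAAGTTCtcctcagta
Hspa1b (chr17:34959324-34959353, minus strand, -104 to -97 from the start): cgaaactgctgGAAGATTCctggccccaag
Fkbp4 (chr6:128438789-128438818, minus strand, -151 to -144 from the start): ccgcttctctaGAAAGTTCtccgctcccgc
Bag3 (chr7:128523603-128523632, plus strand, 43 to 50 after the start): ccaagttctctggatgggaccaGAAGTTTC
The stretch shared by Hspd1 and Hspe1 holds 4 units in a row. It lies upstream of the RefSeq starts used here for both genes, which run head to head. In GENCODE M21 the same stretch lies inside the longer annotated Hspd1 gene, which ends at 55088243. Among the members with a pair that are not shown, Cct5 and Cct6a were lower, and Cct2, Cdc37 and Dnaja1 did not pass. Hspa1a and Hspb1, which also hold a pair, were not tested. Hspa4 (log2 fold change -0.58) had a window without a pair. Whether the letters go with the changes was not tested, and a match of letters is not evidence of binding.

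The HSF1 gene itself (Hsf1, ENSMUSG00000022556, chromosome 15, 76477422 to 76501913) did not pass the test. It stood at 6.45, 6.53 and 6.63 FPKM in RANKL replicates 1, 2 and 3 and at 7.83, 6.73 and 6.96 FPKM in the treated replicates 1, 2 and 3. The treated libraries were all slightly above the RANKL libraries as deposited, but the groups overlapped after scaling (log2 fold change 0.05, SE 0.0775, limma adjusted p = 0.608). Without treated replicate 1 the estimate was -0.01. Of 5 related genes, 3 were abundant enough to test. Hsbp1, a small protein that binds HSF1 and restrains it, had a mean of 34.4 ± 0.751 FPKM in the RANKL group and rose to 44.5 ± 1.11 FPKM (SD, n = 3 in each group here and for the means that follow; log2 fold change 0.29, limma adjusted p = 0.00108). Hikeshi, which carries HSP70 into the nucleus during heat stress, fell from 8.39 ± 0.628 to 7.35 ± 0.230 FPKM, and Hsf2 did not pass at 2.57 ± 0.216 and 2.25 ± 0.312 FPKM.

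The HSP70 system showed the deepest decreases. All 5 tested HSP70 and HSP110 genes were lower with etelcalcetide, against 27.0% of all tested genes, with log2 fold changes from -0.34 to -1.36. Their summed level went from 959 ± 47.4 to 722 ± 23.5 FPKM (n = 3 per group). Hspa8, the constitutive cytosolic HSP70 and by far the most abundant of the family, set most of that sum. It stood at 632, 621 and 593 FPKM in RANKL replicates 1 to 3 and at 516, 501 and 525 FPKM in the treated libraries. The groups were well apart, and the decrease was 20.9% on the scaled values (log2 fold change -0.34, SE 0.0531, limma adjusted p = 0.000779). Hspa8 has 4 near-identical copies elsewhere in the annotation, covering 84.5% of its longest transcript at 98% identity or more, but these together held reads equal to 0.475% of its own.

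Hspa1b, a heat-inducible cytosolic HSP70 (ENSMUSG00000090877, chromosome 17, 34956436 to 34959238), was low and fell the most of all members. It stood at 7.74, 5.33 and 6.75 FPKM in RANKL replicates 1 to 3 and at 2.96, 2.60 and 2.37 FPKM in the treated ones. In reads this was 331, 237 and 275 against 128, 100 and 108. Every treated value was below every RANKL value (log2 fold change -1.36, SE 0.142, limma adjusted p = 8.16e-05). A lower fold change was found for 1.91% of all tested genes. Its neighbour Hspa1a (chromosome 17, 34969190 to 34972156) encodes a nearly identical protein and was not tested, with 1, 2 and 0 reads in the RANKL libraries and 0 in all treated libraries. The genes share a stretch of 2201 bases at 98% identity or more, so reads of either could be counted for the other or left out, and the level of each alone is uncertain. Their promoter windows are identical at 296 of 300 bases. The 250 bases before the Hspa1b start (GRCm38.p6, chr17:34959239-34959488, minus strand) are shown, since this gene had the steepest change of the set. Capitals mark the exact pair of units, and units that depart from those letters were not searched for.
Hspa1b promoter: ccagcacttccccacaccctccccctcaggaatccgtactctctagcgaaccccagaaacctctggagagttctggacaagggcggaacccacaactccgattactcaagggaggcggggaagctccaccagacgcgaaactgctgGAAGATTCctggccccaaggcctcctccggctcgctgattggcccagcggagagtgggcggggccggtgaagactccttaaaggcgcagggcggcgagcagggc

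Hsph1 encodes HSP110, an exchange factor for HSP70 that also helps to dissolve aggregates (ENSMUSG00000029657, chromosome 5, 149614287 to 149636376). It stood at 41.1, 37.0 and 34.9 FPKM in RANKL replicates 1 to 3 and at 19.5, 16.0 and 17.5 FPKM with etelcalcetide. The highest treated library was far below the lowest RANKL library, and the decrease was 55.4% on the scaled values (log2 fold change -1.17, SE 0.0838, limma adjusted p = 9.08e-06). Hspa4, a second member of the HSP110 family (chromosome 11, 53259814 to 53300457), stood at 95.7, 87.0 and 76.9 FPKM in RANKL replicates 1 to 3 and at 64.2, 55.5 and 63.5 FPKM in the treated libraries. These ranges were apart, and the gene fell by 0.58 on the log2 scale (SE 0.0853, limma adjusted p = 0.000555). Hspa4l, another HSP110 gene and not among the 34, fell from 7.70 ± 1.99 to 3.06 ± 0.309 FPKM (log2 fold change -1.36, limma adjusted p = 0.000192). These 3 HSP110 genes were therefore lower. Of 7 other HSP70 family genes 2 of 4 tested were lower and 0 higher, Hspa4l and the microsomal Hspa13 (log2 fold change -0.35, limma adjusted p = 0.0265). HSP70 and HSP110 genes outside these lists were not examined.

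Hspa9, the mitochondrial HSP70 also called mortalin, imports and folds proteins in the matrix (ENSMUSG00000024359, chromosome 18, 34937414 to 34954357). Its values were 228.5, 212.5 and 198.6 FPKM in RANKL replicates 1 to 3 and 135.6, 119.95 and 124.2 FPKM in the treated libraries. No treated library came near the RANKL range, and the decrease was 43.8% on the scaled values (log2 fold change -0.83, SE 0.0675, limma adjusted p = 1.86e-05). Of all tested genes, 4.32% had a lower fold change.

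**Figure D2:**
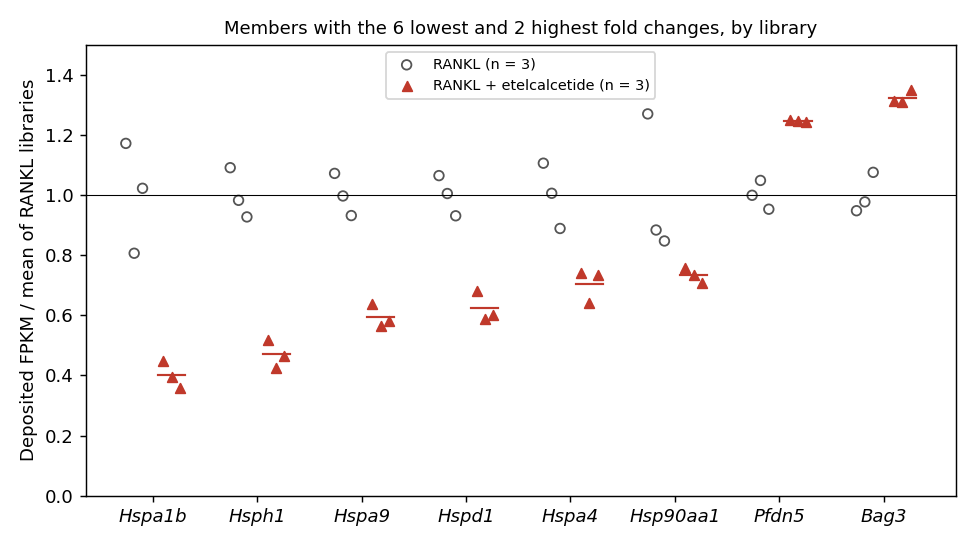
Deposited FPKM of each library divided by the mean of the 3 RANKL libraries, for the 6 members with the lowest and the 2 with the highest fold changes; open circles are RANKL, filled triangles RANKL plus etelcalcetide, and red lines the treated means. The treated triangles lie below every RANKL circle for the first 6 genes and above every circle for Pfdn5 and Bag3; the high circle of Hsp90aa1 is RANKL replicate 1.

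Of 4 HSP70 co-chaperones, 1 was lower, 1 was higher and 2 did not pass, against 27.0% lower and 26.0% higher over all tested genes. Bag3, an exchange factor that couples HSP70 to autophagy and is itself a heat shock gene (ENSMUSG00000030847, chromosome 7, 128523616 to 128546981), stood at 16.5, 17.0 and 18.8 FPKM in RANKL replicates 1 to 3 and at 22.9, 22.8 and 23.5 FPKM with etelcalcetide. All treated libraries were above all RANKL libraries (log2 fold change 0.33, SE 0.0606, limma adjusted p = 0.00198), the largest increase among the 32 tested members. Dnaja2, a J-domain partner of HSP70, went the other way, from 70.9, 68.5 and 62.9 FPKM to 60.5, 57.4 and 61.7 FPKM. The gap between the groups was narrow, 62.9 against 61.7 FPKM, and the decrease passed the test (log2 fold change -0.25, SE 0.0580, limma adjusted p = 0.00617). Dnaja1, a close relative, stood at 25.4, 21.5 and 19.1 FPKM and at 20.4, 18.7 and 19.1 FPKM. Its groups overlapped (log2 fold change -0.25, limma adjusted p = 0.0560); its value rested on single libraries. Without RANKL replicate 1, the high one, the log2 fold change was -0.14 (limma adjusted p = 0.144), and without RANKL replicate 3, the low one, it was -0.35 (limma adjusted p = 0.00579). With replicate number as a block it passed (limma adjusted p = 0.0239). Dnajb1, the main heat-inducible J-domain protein, stood at 16.9 ± 1.06 and 18.7 ± 0.721 FPKM and did not pass (limma adjusted p = 0.4004).

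Other genes of the HSP70 cycle went both ways. Of 23 tested further J-domain genes, 5 were higher, 9 lower and 9 did not pass. Over all tested genes 26.0% were higher and 27.0% lower. Dnajc7, which carries substrates between HSP70 and HSP90, fell from 23.4 ± 0.749 to 17.2 ± 1.09 FPKM (log2 fold change -0.52), and Dnajc21 and Dnajc2, both tied to ribosomes, fell by 0.64 and 0.51 on the log2 scale. Dnajb12, anchored in the endoplasmic reticulum, rose from 18.2 ± 0.974 to 25.5 ± 1.16 FPKM. Of 10 other exchange factors and partners, 1 was higher and 5 were lower, beside the same shares over all tested genes. St13, the HSP70-interacting protein Hip, fell from 32.4 ± 1.52 to 25.8 ± 1.11 FPKM, and Bag2 and Bag1 fell by 0.45 and 0.25 on the log2 scale. Stub1, the ubiquitin ligase CHIP that sends HSP70 clients to the proteasome, rose from 13.2 ± 1.24 to 16.8 ± 0.856 FPKM.

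HSP60 and HSP10, which work as a unit, differed in the size of their change. Hspd1, which encodes HSP60 (ENSMUSG00000025980, chromosome 1, 55077835 to 55088243, minus strand), stood at 366, 345 and 320 FPKM in RANKL replicates 1 to 3 and at 234, 202 and 207 FPKM with etelcalcetide. The groups were far apart, and the decrease was 41.0% on the scaled values (log2 fold change -0.76, SE 0.0725, limma adjusted p = 4.57e-05). Hspe1, which encodes HSP10 and runs the opposite way from the same promoter region (55088132 to 55091307, plus strand, sharing 112 bases with the annotated Hspd1 gene), stood at 88.3, 92.3 and 96.6 FPKM and at 88.1, 89.0 and 83.0 FPKM. Its deposited values overlapped and its decrease was 11.2% on the scaled values (log2 fold change -0.17, SE 0.0558, limma adjusted p = 0.0284). That call was lost without RANKL replicate 2 or 3 or treated replicate 1 or 3 (limma adjusted p = 0.0520 to 0.0924), with library totals alone (limma adjusted p = 0.186), and with replicate number, to which the labels tie the days of exposure, as a block (limma adjusted p = 0.0509). A copy elsewhere, AC117239.2, shares 515 bases with Hspe1 and held reads equal to 33.7% of its own, so the level of Hspe1 is uncertain. With that copy's reads added the log2 fold change was -0.18.

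The ratio of Hspd1 to Hspe1 FPKM went from 3.73 ± 0.414 to 2.47 ± 0.191 (n = 3 per group), and every treated ratio was below every RANKL ratio. This was 1 of 6 ratios compared between the groups; in each the groups did not overlap, which gives p = 0.1 in a two-sided exact permutation test, the smallest that 3 against 3 allows, and an adjusted p of 0.1 over the 6. The ratios were chosen after the values were seen.

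Of 8 mitochondrial disaggregase and protease genes outside the set, 4 were lower, 0 were higher and 4 did not pass; 27.0% of all tested genes were lower. Clpx, the unfoldase of the matrix protease ClpXP, fell from 17.8 ± 1.61 to 12.3 ± 0.246 FPKM (log2 fold change -0.60, limma adjusted p = 0.000230). Lonp1, the main matrix protease, fell from 53.5 ± 2.80 to 46.2 ± 2.80 FPKM, and Htra2, a protease between the mitochondrial membranes, from 26.8 ± 2.31 to 21.9 ± 0.375 FPKM. Yme1l1, an inner membrane protease, passed narrowly at 11.2 ± 1.97 and 9.49 ± 0.498 FPKM (limma adjusted p = 0.0496). The mitochondrial chromosome took 3.15% to 4.10% of gene-assigned reads without etelcalcetide and 3.0% to 3.38% with it; the part of this in the mitochondrial chaperones' decreases was not tested.

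Among the HSP90 genes the cytosolic isoforms differed. Hsp90ab1, the constitutive isoform HSP90 beta (chromosome 17, 45567775 to 45573271), was the most abundant member and did not pass the test. It stood at 1167, 1206 and 1186 FPKM in RANKL replicates 1 to 3 and at 1278, 1244 and 1283 FPKM in the treated libraries. The deposited values were all higher with etelcalcetide, but they overlapped after scaling (log2 fold change 0.02, 95% confidence interval -0.11 to 0.15, limma adjusted p = 0.827). Hsp90aa1, the inducible isoform HSP90 alpha (ENSMUSG00000021270, chromosome 12, 110690605 to 110702728), stood at 128, 89.1 and 85.4 FPKM and at 76.5, 73.9 and 71.2 FPKM. It was lower in all treated libraries (log2 fold change -0.50, SE 0.133, limma adjusted p = 0.0115). RANKL replicate 1 stood apart from the other 2, and without it the log2 fold change was -0.32 (limma adjusted p = 0.00242). The ratio of Hsp90ab1 to Hsp90aa1 was 9.12, 13.5 and 13.9 in RANKL replicates 1 to 3 and 16.7, 16.8 and 18.03 in the treated ones. Trap1, the mitochondrial HSP90 (chromosome 16, 4039971 to 4077827), stood at 77.99, 80.3 and 80.7 FPKM and at 71.4, 70.2 and 64.9 FPKM. The decrease was 18.3% on the scaled values, with no overlap between groups (log2 fold change -0.29, SE 0.0552, limma adjusted p = 0.00217).

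Of the 5 HSP90 co-chaperones in the set, 3 were lower and 2 did not pass, against 27.0% lower over all tested genes. Fkbp4, the immunophilin FKBP52 that ties HSP90 to steroid receptors (chromosome 6, 128429735 to 128438677), stood at 114, 124 and 128 FPKM in RANKL replicates 1 to 3 and at 98.9, 96.5 and 92.0 FPKM with etelcalcetide. The groups did not overlap (log2 fold change -0.43, SE 0.0590, limma adjusted p = 0.000376). Ptges3, which stabilises the closed form of HSP90 (chromosome 10, 128058954 to 128077272), stood at 216, 205 and 194 FPKM and at 166, 153 and 159 FPKM. This separation was as clear (log2 fold change -0.44, SE 0.0580, limma adjusted p = 0.000283). Ahsa1, the activator of the HSP90 ATPase, fell from 30.1 ± 1.23 to 25.9 ± 1.11 FPKM (log2 fold change -0.30). Stip1, the adaptor HOP that links HSP70 to HSP90, stood at 136 ± 3.55 and 139 ± 7.99 FPKM (limma adjusted p = 0.4805). Cdc37, which brings kinases to HSP90, was above the RANKL range in all treated libraries, at 61.1 ± 2.51 and 70.9 ± 2.45 FPKM, but did not pass (log2 fold change 0.14, limma adjusted p = 0.0583). It passed as higher without RANKL replicate 2 or treated replicate 1 (limma adjusted p = 0.0459 and 0.0462) and with library totals alone (limma adjusted p = 0.00838).

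Of 13 tested further HSP90 partners, 3 were higher, 5 lower and 5 did not pass. The shares over all tested genes were 26.0% higher and 27.0% lower. Nudcd2 fell from 44.0 ± 1.47 to 30.7 ± 2.34 FPKM, Tomm70a, the mitochondrial import receptor that docks HSP90 and HSP70, from 30.9 ± 2.85 to 21.5 ± 2.04 FPKM, and Ppid, the cyclophilin CyP40, from 37.5 ± 2.18 to 29.8 ± 2.12 FPKM. Unc45a, a myosin chaperone, rose from 7.02 ± 0.354 to 11.3 ± 0.582 FPKM (log2 fold change 0.60, limma adjusted p = 0.000215).

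**Figure D3:**
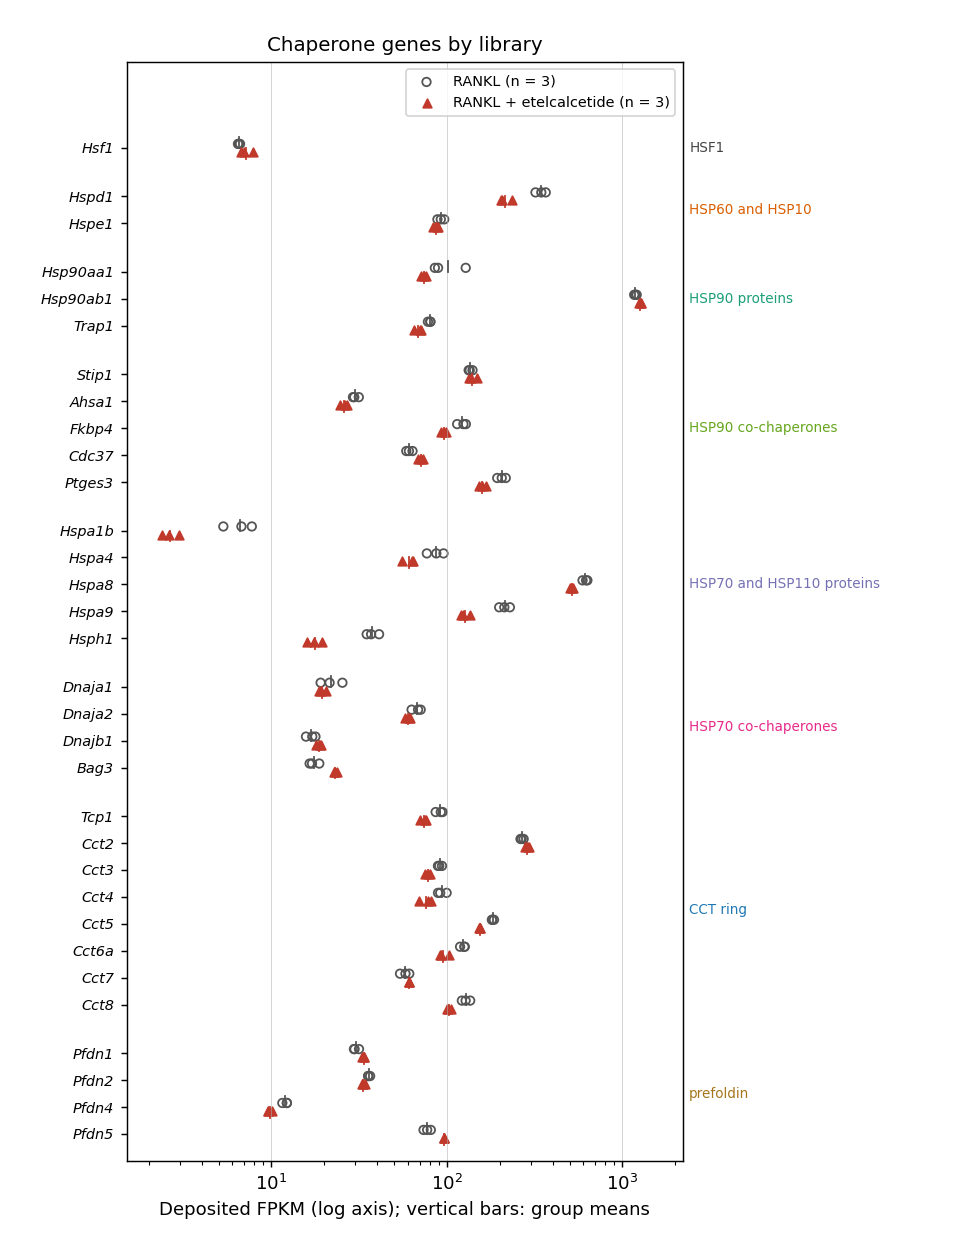
Deposited FPKM of the 32 tested members in each of the 6 libraries on a log axis, grouped by system; open circles are RANKL, filled triangles RANKL plus etelcalcetide, and vertical bars the group means. Levels run from 6.54 FPKM for Hsf1 to 1186 FPKM for Hsp90ab1 in the RANKL group, and most differences between groups are small against that range.

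The small heat shock protein gene Hspb1 (chromosome 5, 135887919 to 135889563), whose product HSP27 holds unfolded proteins, was listed at 0 reads in all 6 libraries. A limit of 3 reads corresponds to 0.179 to 0.212 FPKM per library, counting error only. Near-identical stretches of 2 other genes, both also at 0 reads, cover 51.8% of its longest transcript. Of 7 other small heat shock protein genes, 2 were abundant enough to test. Hspb7 stood at 0.592, 0.751 and 0.721 FPKM in RANKL replicates 1 to 3 and at 0.304, 0.0526 and 0.155 FPKM in the treated ones; it met the minimum of 0.5 FPKM only through the RANKL group, so its test is not used here. Hspb6 did not pass at 1.74 ± 0.145 and 1.55 ± 0.276 FPKM. Cryab, alpha B crystallin, had 1 read over all libraries.

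The CCT ring is built of 8 different subunits, each of which fills a place of its own. With etelcalcetide 6 of the 8 genes were lower, within a narrow range of log2 fold changes from -0.31 to -0.45, and 2, Cct2 and Cct7, did not pass. Over all tested genes 27.0% were lower, and 33.4% of those with a mean of at least 10 FPKM. Cct6a, which encodes the zeta subunit (chromosome 5, 129786998 to 129846371), stood at 126, 126 and 119 FPKM in RANKL replicates 1 to 3 and at 103, 92.2 and 91.7 FPKM in the treated ones. The groups did not overlap (log2 fold change -0.45, SE 0.0602, limma adjusted p = 0.000316), although 15.3% of its exon length lies in other genes, mainly the antisense gene Psph. Cct8, the theta subunit (chromosome 16, 87483326 to 87495873), stood at 136, 128 and 122 FPKM and at 105, 100.4 and 101 FPKM. This was a decrease of 24.5% on the scaled values (log2 fold change -0.41, SE 0.0548, limma adjusted p = 0.000338). Tcp1, the alpha subunit, Cct4, the delta subunit, Cct5, the epsilon subunit, and Cct3, the gamma subunit, fell by 0.39, 0.37, 0.33 and 0.31 on the log2 scale. Of the exon length of Tcp1, 16.9% lies in other genes. Tcp1 also shares a stretch of 445 bases with Acat2, which held reads equal to 8.82% of those of Tcp1. With the reads of Acat2 added the log2 fold change of Tcp1 was -0.36.

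Cct2, the beta subunit, was the most abundant of the ring at 263, 274 and 267 FPKM in RANKL replicates 1 to 3 and 288, 278 and 294 FPKM in the treated ones. Its log2 fold change of 0.02 had a 95% confidence interval of -0.09 to 0.13. Cct7, the eta subunit and the lowest of the ring in FPKM, stood at 54.1, 58.1 and 61.1 FPKM and at 61.1, 60.99 and 60.7 FPKM. Its log2 fold change was 0.00, with an interval of -0.12 to 0.13. The intervals of Cct2 and Cct7 did not reach the estimates of the 6 genes that fell. The ratio of Cct2 to Cct6a went from 2.17 ± 0.0770 to 3.01 ± 0.206 (n = 3 per group), another of the 6 ratios above. The coefficient of variation among the 8 subunits' FPKM ranged from 50.1% to 52.8% under RANKL alone and from 62.4% to 66.1% with etelcalcetide. Summed FPKM of the ring was 1036 ± 14.3 and 927 ± 26.1.

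**Figure D4:**
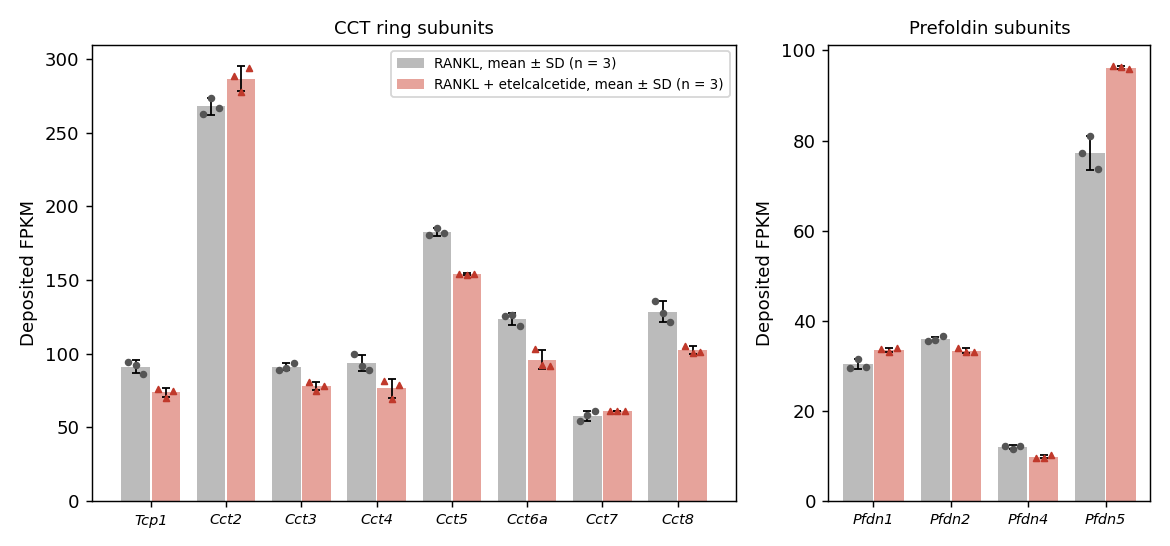
Deposited FPKM of the 8 CCT ring subunits (left) and 4 prefoldin subunits (right); bars are group means, error bars SD over 3 libraries, and points single libraries. In the ring Cct2 and Cct7 do not share the lower treated bars of the other 6, and in prefoldin the treated bar is lower for Pfdn2 and Pfdn4 and higher for Pfdn5.

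Prefoldin, the hexamer that hands actin and tubulin chains to the CCT ring, was split. Pfdn5 (ENSMUSG00000001289, chromosome 15, 102326116 to 102331873), the alpha-type subunit also known as a MYC-binding protein, stood at 77.2, 81.0 and 73.6 FPKM in RANKL replicates 1 to 3 and at 96.5, 96.3 and 95.9 FPKM with etelcalcetide. The treated libraries were closely grouped above the RANKL range (log2 fold change 0.24, SE 0.0528, limma adjusted p = 0.00499); 11.8% of the exon length lies in the gene Myg1. Pfdn4 (chromosome 2, 170496428 to 170519123), a beta-type subunit, stood at 12.2, 11.5 and 12.3 FPKM and at 9.54, 9.62 and 10.2 FPKM. It was lower in every treated library (log2 fold change -0.38, SE 0.0611, limma adjusted p = 0.000957), with 28.7% of its exon length shared with antisense genes. Pfdn2 fell from 35.9 ± 0.518 to 33.3 ± 0.542 FPKM (log2 fold change -0.19, limma adjusted p = 0.00925, and 0.0922 with library totals alone). Of its exon length 27.6% overlaps the antisense gene Klhdc9. Pfdn1 stood at 30.3 ± 1.11 and 33.6 ± 0.480 FPKM and did not pass (limma adjusted p = 0.297, and 0.0397 with library totals alone). The ratio of Pfdn5 to Pfdn4 was 6.30, 7.02 and 6.00 in RANKL replicates 1 to 3 and 10.1, 10.0 and 9.45 in the treated ones.

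Of the 2 prefoldin subunits outside the set, Vbp1 was slightly lower (log2 fold change -0.17, limma adjusted p = 0.0407). Pfdn6 did not pass (log2 fold change 0.15, 95% confidence interval -0.01 to 0.31, limma adjusted p = 0.109), and that interval includes the estimate for Pfdn5. Over the 14 tested partners of prefoldin and CCT, 2 were higher, 6 lower and 6 did not pass. The shares over all tested genes were 26.0% higher and 27.0% lower. Uri1 and Pdrg1, subunits of a prefoldin-like complex, fell from 27.1 ± 1.48 to 20.7 ± 0.437 and from 17.1 ± 1.67 to 12.4 ± 0.489 FPKM. Pdcl and Txndc9, phosducin-like and thioredoxin-like cofactors of CCT, fell by 0.28 and 0.30 on the log2 scale.

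The 34 genes together took 1.54% to 1.62% of gene-assigned reads without etelcalcetide and 1.36% to 1.43% with it, and the most abundant, Hsp90ab1, held 0.350% to 0.362% and 0.373% to 0.385%. The SD between replicates on the log2 scale had a median of 0.0758 in the RANKL group and 0.0502 in the treated group over the 32 tested members. Over the tested genes of at least 10 FPKM those medians were 0.0870 and 0.0577.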

How the data were processed

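RNA sequencing covered 6 libraries of RAW264.7 cells, 3 per group. The deposited tables, made by the authors, list FPKM for 55536 Ensembl genes. The submitters' processing notes name featureCounts 1.6.0 (a read counter), HISAT2 2.1.0 (an aligner), Trimmomatic 0.38 (a read trimmer) and DESeq2 1.22.1, without saying how each was used. The same notes give GRCh38 as the build, whereas every ID was found in the mouse annotation GENCODE M21 (GRCm38), which gave symbols and 1-based coordinates. Strandedness and the handling of reads that map to several genes are not given in the sources used here.

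FPKM times merged exon length gave whole reads for 100% of values (tolerance 0.01 reads), with totals of 13742913 to 16264432. Within-group pairs of libraries differed by a median chi-square per gene of 1.08 to 2.67 and were kept as separate samples. The mean per gene was 5.38 to 29.0, highest in the pairs that hold treated replicate 2 (20.3 and 29.0). No value for counting error alone was computed. Scaling used TMM factors (trims of 0.3 for M and 0.05 for A values). The model, in limma 3.58.1 under R 4.3.3, was fitted to log2(scaled FPKM + 0.1) with a single group term and a prior variance that follows the mean. Genes with 0.5 FPKM and 10 reads in at least 3 libraries were tested. Fold changes on the log2(FPKM + 0.1) scale understate those of low genes. The script was tested on simulated data. Alternatives in scaling, pseudocount, filter, prior variance and libraries are in the closing section. Near-identical copies were found with blastn 2.17.0 (98% identity over 100 bases or more). Tables used Python 3.11.15 and pandas 2.3.3.

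The members, gene lists and tests were chosen with earlier results of these data known. Values in every library are given for Hsf1, Hspa1a, Hspa1b, Hspb1 and, in each system, the 2 members with the smallest adjusted p and the 2 with the largest fold change; Hspa4, Hspa8, Hsp90ab1, Cct2 and Cct7 were added after their values were seen. Up to 4 genes with the smallest adjusted p are named from each further list, and Cryab, Vbp1 and Pfdn6 were added likewise.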

Additional observations from a re-analysis of the deposited data

How the results depend on the processing

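The comparison was repeated under 15 alternatives: library totals alone, upper-quartile scaling, pseudocounts of 1 and 0.01 FPKM, no filter beyond 1 read, a filter at 2 FPKM, a constant prior variance, a replicate block, each library left out, and, chosen after seeing the data, members summed with near-identical copies. The planned sum of Hspa1a and Hspa1b was run for that pair alone and adds only the 3 reads of Hspa1a. Of the 23 members called, 20 kept their call under all 15, and the exceptions were Hspe1, Hsp90aa1 and Pfdn2; 3 of the 9 that did not pass (Cdc37, Dnaja1, Pfdn1) were called under some. No named member that passed the test reversed. With library totals alone 4 members were higher in place of 2; HSP90 co-chaperones then had 1 higher, and prefoldin 2 higher and 1 lower. HSP60 and HSP10 had 1 gene lower in place of 2 with library totals alone, no filter, a constant prior variance or the replicate block, and 1 to 2 when a library was left out (the gene concerned was Hspe1). Without a filter HSP90 proteins had 1 lower (Hsp90aa1, limma adjusted p = 0.0534, of 22193 genes tested). HSP70 co-chaperones had 2 lower with upper-quartile scaling and with the replicate block, and 1 to 2 when a library was left out. HSP90 co-chaperones had 0 to 1 higher when a library was left out. Over all genes the leave-one-out counts of changed genes were 4689 to 6064. Same-numbered libraries did not deviate together from their group means (correlations 0.0744, -0.0188 and -0.0299 for replicates 1, 2 and 3), so the data give no sign of pairing, though the labels give same-numbered libraries the same days of exposure; with the replicate block 5709 genes changed in place of 5894. Hspa1a and Hspb1, with 3 and 0 reads in all, could not be tested at this depth, and the part of reads shared with near-identical copies was not tested.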

Other observations

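Actin and tubulin are the main clients of prefoldin and the CCT ring. Of 13 tested actin and tubulin genes, 7 were higher, 2 lower and 4 did not pass, against 26.0% higher and 27.0% lower over all tested genes. Their median log2 fold change was 0.26. Actb and Actg1, the cytoplasmic actins, rose from 1469 ± 76.7 to 1862 ± 17.3 FPKM and from 245 ± 15.3 to 318 ± 16.6 FPKM (log2 fold changes 0.26 and 0.30, limma adjusted p = 0.00855 and 0.00486). Tubb2a, a beta tubulin, rose from 2.44 ± 0.256 to 8.90 ± 0.458 FPKM (log2 fold change 1.75, limma adjusted p = 1.97e-06), and Tuba1a, an alpha tubulin, from 4.98 ± 0.0644 to 10.7 ± 2.03 FPKM. Tubb6 was the steepest decrease of the list, from 120.2 ± 16.4 to 97.7 ± 3.37 FPKM (log2 fold change -0.37, limma adjusted p = 0.00851), and Tuba4a fell by 0.34 on the log2 scale. Of the other abundant tubulins, Tubb5 and Tuba1b did not pass, with RANKL means of 501 ± 23.1 and 303 ± 24.4 FPKM and treated means of 505 ± 27.0 and 294 ± 8.64 FPKM. Tubulin genes are close copies of each other, and their single values are uncertain. Tuba1c and Tubb4b did not pass either. Actb, Tubb6, Tubb5, Tuba1b, Tuba1c and Tubb4b were named after their values were seen.

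Among the treated libraries, replicate 1 had the highest scaled value for 20 of the 32 tested chaperone genes (62.5%), against 36.5% of all tested genes. In the RANKL group replicate 1 was the highest for 14 members (43.75%, against 33.2% of all tested genes). It was the lowest for 15 (46.9%, against 40.2% of all tested genes), while RANKL replicate 2 was the lowest for 2 (6.25%, against 23.2% of all tested genes). Each of the 23 called members kept the direction of its fold change when either replicate 1 was left out. Hspe1 no longer passed without treated replicate 1 (limma adjusted p = 0.0520).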
